A study of Mus musculus with 11 samples.

Results

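Newly made RNA was described in mouse embryonic stem cells that had received a non-targeting control siRNA (siNT), using the 3 siNT libraries of the 11 samples in the series and no other library. All 13088 genes of the exon table and all 5867 regions of the upstream antisense RNA (uaRNA) table were taken, whatever their level. The study asked how the Restrictor complex, which holds ZC3H4 and WDR82, attenuates transcription, and its other 8 samples had ZC3H4 depleted by siRNA, or carried a ZC3H4 degron tag and were given dTAG13 or DMSO. The 3 libraries came from wild-type F121-9 cells, a female mouse embryonic stem cell line of a CAST/129 hybrid background, 47 hours after transfection with 30 nM of the siRNA. The medium was serum-free and held LIF, a MEK inhibitor (PD0325901) and a GSK3 inhibitor (CHIR99021), so that every value below is one under these agents and after transfection. Cells took up 500 µM 4-thiouridine (4sU) for the last 20 minutes, and the labelled RNA was fragmented, biotinylated, pulled down and sequenced (TT-seq). The labels give the molecule as nuclear RNA. The design text speaks of biological replicates, but the labels name no separate cultures, so the spread between them may be partly technical.

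TT-seq catches RNA made during the short labelling time, so an exon value follows the rate of synthesis more closely than the amount of mature RNA, although some mature RNA can be carried through the pull-down. Active promoters of mammalian genes often fire in both directions: a polymerase leaves downstream to make the gene, and another leaves upstream to make a uaRNA, which ends early and is soon degraded by the nuclear exosome. Cultured with LIF and both inhibitors, embryonic stem cells are held in a naive state, in which a network of transcription factors around Pou5f1 (OCT4), Sox2, Nanog, Esrrb and Tfcp2l1 is active and lineage genes are low.

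The promoters below show the sequence around the starts of genes on which the results turn: 3 hosts with far more uaRNA than exon reads (Zbtb2, Zfp202 and Tmem238), 2 with the reverse (Rpl6 and Cdk4) and the naive factor gene Nanog. Each run is 5′ to 3′ on the gene's strand and spans 250 bases before to 50 bases after the RefSeq start (build GRCm38.p6), so the uaRNA leaves toward its left end. Capitals mark matches on either strand. The motifs searched were the TATA box TATAAA, the CCAAT box, the GC box GGGCGG, the ETS core CCGGAAG, the splice donor hexamer GGTAAG and the poly(A) signal AATAAA, beside the NRF1 and octamer motifs. The windows lie at chr10:4388059-4388358, minus strand (Zbtb2), chr9:40192066-40192365, plus strand (Zfp202), chr7:4789511-4789810, minus strand (Tmem238), chr5:121204251-121204550, plus strand (Rpl6), chr10:127063285-127063584, plus strand (Cdk4) and chr6:122707315-122707614, plus strand (Nanog).
Zbtb2: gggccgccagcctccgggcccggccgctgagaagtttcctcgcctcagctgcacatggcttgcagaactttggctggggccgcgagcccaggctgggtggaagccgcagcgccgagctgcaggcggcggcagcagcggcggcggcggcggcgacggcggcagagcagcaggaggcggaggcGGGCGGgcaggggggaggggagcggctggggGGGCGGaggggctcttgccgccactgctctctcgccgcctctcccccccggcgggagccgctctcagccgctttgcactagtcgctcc
Zfp202: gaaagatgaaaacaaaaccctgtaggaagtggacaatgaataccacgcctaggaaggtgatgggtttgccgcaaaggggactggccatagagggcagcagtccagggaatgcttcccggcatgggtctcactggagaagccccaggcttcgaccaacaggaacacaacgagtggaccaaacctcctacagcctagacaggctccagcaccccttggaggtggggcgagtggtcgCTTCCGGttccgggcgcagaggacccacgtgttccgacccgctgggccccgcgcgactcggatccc
Tmem238: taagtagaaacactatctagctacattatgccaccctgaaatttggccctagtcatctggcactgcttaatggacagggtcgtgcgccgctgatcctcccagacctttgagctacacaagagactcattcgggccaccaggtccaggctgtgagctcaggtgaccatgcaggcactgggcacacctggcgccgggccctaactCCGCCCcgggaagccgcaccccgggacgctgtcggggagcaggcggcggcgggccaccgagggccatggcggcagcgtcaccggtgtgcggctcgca
Rpl6: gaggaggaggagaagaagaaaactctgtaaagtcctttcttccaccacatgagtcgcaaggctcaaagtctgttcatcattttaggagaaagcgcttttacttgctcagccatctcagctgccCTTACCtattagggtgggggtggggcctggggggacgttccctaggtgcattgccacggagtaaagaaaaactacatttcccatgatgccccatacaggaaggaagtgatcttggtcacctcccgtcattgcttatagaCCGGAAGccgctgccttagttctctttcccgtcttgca
Cdk4: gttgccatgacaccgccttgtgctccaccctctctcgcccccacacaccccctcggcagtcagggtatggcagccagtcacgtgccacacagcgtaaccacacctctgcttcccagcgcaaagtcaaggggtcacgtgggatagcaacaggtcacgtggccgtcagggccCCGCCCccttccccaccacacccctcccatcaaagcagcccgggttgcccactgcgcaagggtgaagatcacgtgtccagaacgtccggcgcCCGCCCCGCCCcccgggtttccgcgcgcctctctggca
Nanog: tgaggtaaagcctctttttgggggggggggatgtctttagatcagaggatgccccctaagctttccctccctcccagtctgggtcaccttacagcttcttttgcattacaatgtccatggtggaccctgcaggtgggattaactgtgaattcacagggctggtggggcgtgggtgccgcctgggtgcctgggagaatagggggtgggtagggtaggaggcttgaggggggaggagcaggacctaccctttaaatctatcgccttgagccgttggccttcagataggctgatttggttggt
The RefSeq start lay within 177 bases of the start in the exon table for all 6. The Zbtb2 window is 76.3% G or C, that of Rpl6 50.3% and that of Nanog 56%. Nanog has none of these motifs in the window, which says only that these letters are not there.

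The files hold values that the authors divided by a depth factor of each library, here named normalised reads. Before that division the exon reads totalled 14840637, 17563244 and 18479834 in replicates 1, 2 and 3, and the uaRNA reads 996927, 1031703 and 1195995. The log2 values of the libraries correlated between 0.982 and 0.989 over exon features with a mean of 10 or more and between 0.952 and 0.965 over uaRNAs (Pearson, across features, as a description). No pair of libraries agreed within sampling noise (chi-square over degrees of freedom at least 16.8 for exons and 4.74 for uaRNAs), so all 3 were kept as separate samples. With 1 group there is no contrast, so values are given as a mean ± SD over the 3 libraries, and no test is made.

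Protein-coding genes made up 12009 of the 13088 genes and held 97.9 ± 0.18% of normalised exon reads (n = 3). The 923 long noncoding RNA (lncRNA) genes held 1.80 ± 0.13%, the 93 small nuclear RNA (snRNA) genes 0.204 ± 0.043% and 63 pseudogenes of 5 annotated types the rest. Levels between genes are compared per kb of the transcript length given in the table. The median level of protein-coding genes was 189, 193 and 206 normalised reads per kb in replicates 1, 2 and 3 (196 ± 9.04), and that of lncRNA genes 36.7, 34.0 and 38.3 (36.3 ± 2.17). Among genes with a mean of 10 or more normalised reads, the lncRNA median was lower by a log2 difference of -1.82 ± 0.03 (n = 3). This gap was -2.43 with no filter and -1.04 with a filter at 50. Of the lncRNA genes, 520 (56.3%) lay in the lowest 25% of all genes and 29 (3.14%) in the top 10%. Zero reads in all 3 libraries were found for 51 protein-coding, 5 lncRNA and 2 snRNA genes.

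**Figure D1:**
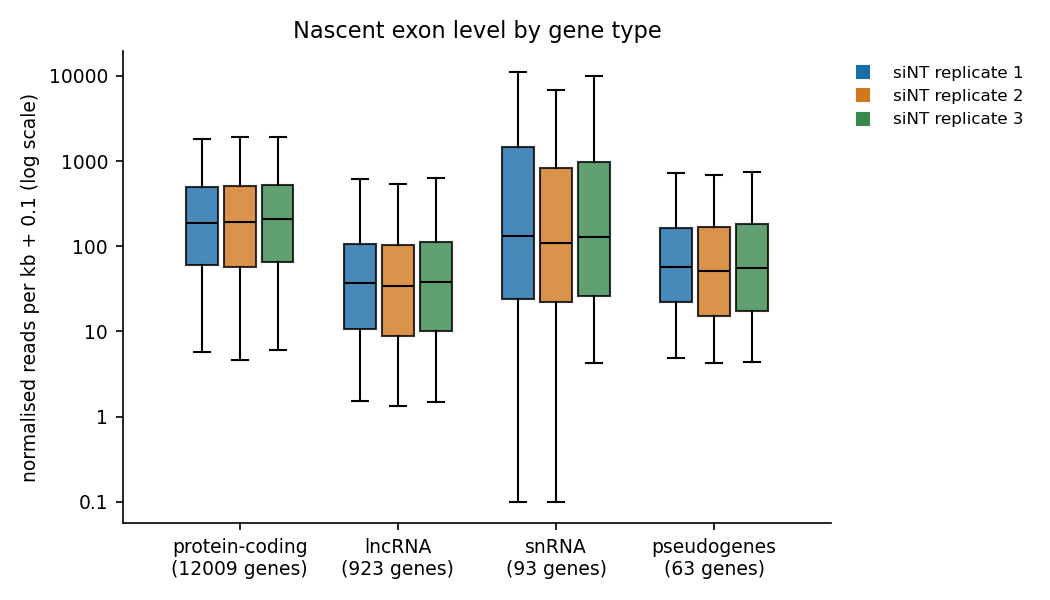
Normalised exon reads per kb of transcript plus 0.1, on a log scale, for the 4 gene classes in each siNT library. Boxes span the quartiles with the median as a line, whiskers the 5th to 95th percentiles of genes. The lncRNA boxes sit below the protein-coding boxes in every library, and the snRNA boxes have the widest range.

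Apart from the highest, Stap2, ribosomal protein genes, histone genes and a translation factor gene led the protein-coding genes per kb. Stap2, which encodes a signal-transducing adaptor, stood at 102889, 65678 and 70118 normalised reads (43524 ± 11118 per kb). It was highest in replicate 1, and no other RefSeq gene overlaps its span. It was followed by the histone genes H2bc18 (43101 ± 10275 per kb) and H1f1 (39131 ± 8745), which package DNA, and by Rpl3 (37165 ± 2823), a large-subunit ribosomal protein. Eef1a1, which brings aminoacyl-tRNA to the ribosome, had 59032, 51606 and 74038 normalised reads (35439.6 ± 6579 per kb), the most in replicate 3. Rps3, Rps12, Rplp1 and Rps9 stood between 29162 and 33758 per kb, and the histone gene H4c8 at 30547 ± 1254. Of these 10, Rps3 varied least between libraries, at 16925, 17189 and 16928 normalised reads. Histone paralogs are alike in sequence, so how their reads were shared out is uncertain.

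The 100 genes with the most normalised reads held 13.8%, 12.9% and 13.2% of exon reads (13.3 ± 0.46%, n = 3). The 10 with the most reads added to Stap2, Eef1a1 and Rpl3 the chaperone genes Hsp90ab1 (50407, 47090.4 and 60219 normalised reads) and Hspa8 (30713, 29555 and 33015). They also included the cytoskeletal genes Actb (49224, 44032 and 61048) and Tubb5 (37856, 38865 and 38444), the elongation factor gene Eef2 (47094, 51031 and 54094) and Rpl12 (31945, 28513 and 32132). The last was Fn1, which encodes the matrix protein fibronectin, at 27836, 32718 and 32615. Stap2 was highest in replicate 1, while Eef1a1, Hsp90ab1 and Actb were highest in replicate 3.

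Hosts of small nucleolar RNAs (snoRNAs) led the lncRNA genes. SnoRNAs guide modification of ribosomal RNA and are cut out of introns, while the spliced host RNA is often short-lived. The highest lncRNA, 2410006H16Rik, had 20835, 16430.4 and 20662 normalised reads (41795 ± 5399 per kb) and has 3 RefSeq snoRNAs in its span. Gas5, with 8, reached 15910, 13049.6 and 18879 (34817 ± 6364 per kb). Snhg3 (34553 ± 1488), Snhg1 (32089 ± 5745), Snhg12 (29282 ± 1928), 1110038B12Rik (23842 ± 2182), Snhg8 (18315 ± 3225) and Rab26os (14167 ± 1303) also hold at least 1. Gas5, Snhg1 and Snhg8 were lowest in replicate 2 and highest in replicate 3. In all, 23 lncRNA genes have a RefSeq snoRNA inside their span, on either strand, and they held 49.1 ± 1.64% of normalised reads of the 923 lncRNA genes. Their median was 5175 ± 881 reads per kb against 34.8 ± 2.56 for the 900 without, and 15 of the 23 lay in the top 10% of all genes against 14 of the 900. Among protein-coding genes, the 266 with a snoRNA in the span had a median of 356 ± 26.9 per kb and the 11743 without one 194 ± 9.49. Exon reads of a gene with a snoRNA at an exon edge can include the snoRNA, which was not tested.

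Other lncRNA genes in the top 10% included Neat1, the scaffold of paraspeckles, at 7220, 6686 and 9152 normalised reads (2557 ± 432 per kb), and Malat1, a nuclear speckle RNA, at 1149, 502 and 1379.7 (2083 ± 938). Malat1 was lower in replicate 2 than in the others by more than the libraries' usual spread, with a coefficient of variation (CV) of 45.1%. Its reads were fewer than its value per kb, so the transcript length used was under a kb. That length may not cover the whole RNA, so the rank of Malat1 and its level beside Neat1 are uncertain. Lncenc1, a lncRNA known from naive stem cells, was steady at 4713, 4784 and 4757 (1752 ± 13.3 per kb), and the pluripotency-associated Platr16 and Platr27 stood at 1712 ± 65.7 and 1314 ± 150.2 per kb. Meg3 was at 651, 1586 and 1296 and Airn, an imprinted antisense RNA, at 9.00, 22.6 and 27.3. Xist and Tsix are not analysed here, and Jpx, an activator of Xist, had 6.00, 6.09 and 5.12 normalised reads.

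The snRNA genes spread over the widest range, with a median of 123 ± 13.4 normalised reads per kb (n = 3) and 23 of 93 in the top 10%. Gm22973 (6598, 5077 and 7666 normalised reads), Gm25541 (2723, 866 and 2337), Gm22710 (1774, 1232 and 2680), Rnu11 (2003, 1418 and 1925) and Gm26316 (2114, 1715 and 2226) were the highest per kb. All 5 were lowest in replicate 2. Rnu11 makes the U11 RNA of the minor spliceosome. Most snRNA genes belong to families of near-identical copies, so the reads of a single copy are uncertain. Among pseudogenes, Rpl37rt was highest (1470, 1588 and 1411, 1765 ± 107 per kb), followed by Gm13147 (1079 ± 185), Pisd-ps1 (909 ± 91.7), 2810025M15Rik (809.6 ± 130) and Gm1821 (742 ± 50.2). Rpl37rt resembles a ribosomal protein gene, and its reads may be shared with that gene's. The unprocessed Gm7972, Gm19196 and 2610005L07Rik stood between 175 and 271 per kb, and the processed Gm7435 and 3000002C10Rik at 272 and 219.6. Among unitary pseudogenes 4930519F16Rik was highest (262 ± 19.2 per kb), then Slc2a4rg-ps (179.7 ± 12.1), Thap6 (165 ± 28.1), Zfp862-ps (75.9 ± 10.3) and Gm15506 (27.5 ± 7.63). The polymorphic pseudogenes ran from H2-Bl (393 ± 142) and Atp10d (225 ± 23.3) through Abhd1 (177 ± 25) and Hyi (34 ± 2.85) to Rnls (14.6 ± 2.57). The single plain processed pseudogene, Gm8225, was at 32, 11.3 and 12.8 normalised reads.

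Short genes stood higher per kb than long ones. Over 5 groups of protein-coding genes of near-equal size by transcript length, the median level fell from 400.4 ± 13.4 reads per kb in the shortest group (up to 1531 bases) to 243 ± 8.84, 189 ± 10.5, 160 ± 7.90 and 130 ± 5.35 in the longest. Over 5 groups by gene span it fell from 300.5 ± 5.11 (up to 6948 bases) to 119 ± 5.39 (62430 bases and more). The ranks below are by level per kb, and so place short genes such as those of ribosomal proteins and histones higher than ranks by reads would.

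All 5 stem cell markers were high. Pou5f1, the POU factor without which the state is lost, had 8128, 10507 and 8602 normalised reads in replicates 1, 2 and 3 (6852 ± 950.4 per kb, percentile 98.8 of 13088 genes). Nanog, a homeodomain factor, had 14035, 13478 and 15823 (6611 ± 561 per kb, percentile 98.8), and Esrrb, an orphan nuclear receptor, 11073, 10732 and 11828 (8814 ± 441 per kb, percentile 99). These factors differed between libraries by CVs of 13.9%, 8.48% and 5.00%. Tfcp2l1, a naive factor acting downstream of LIF, reached 27836, 25145 and 32334 (3068 ± 392 per kb, percentile 97.5). Sox2, the partner of OCT4, was the most uneven, at 2635, 2070.4 and 4997 (1730.5 ± 831 per kb, percentile 94.5). It was highest in replicate 3, with a CV of 48%. The lncRNA gene Sox2ot overlaps Sox2 in RefSeq.

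**Figure D2:**
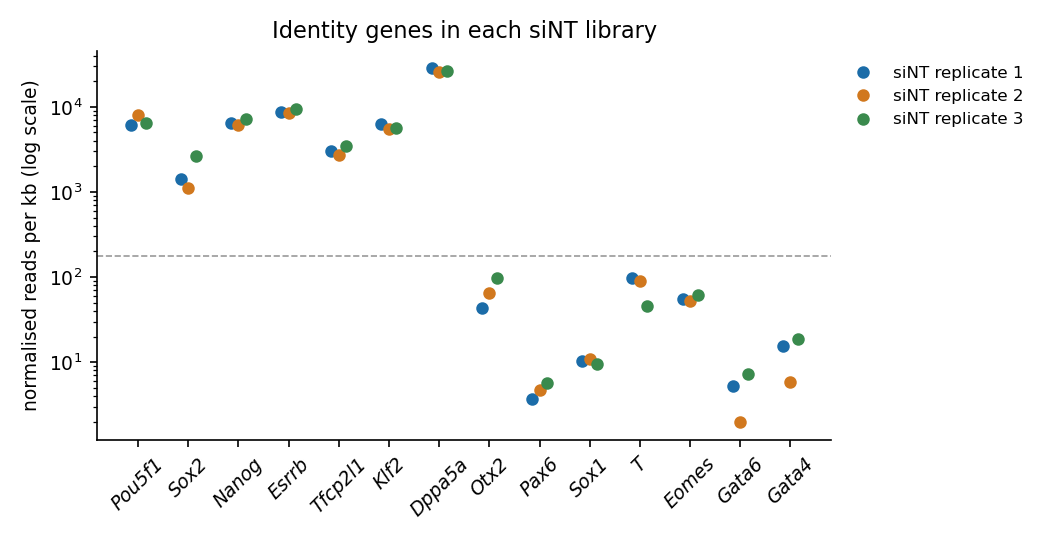
Normalised exon reads per kb, on a log scale, of 14 identity genes in each siNT library; the dashed line is the median of all genes. The naive and pluripotency genes at the left sit above the line in every library, and the lineage genes and Otx2 below it.

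Other naive genes stood in the same range. Of 24 genes listed for naive pluripotency, 21 were in the table (Prdm14, Dppa3 and Spic are not analysed here). Their median percentile was 95.7 ± 1.39 over the 3 libraries against 50.0 for all genes, 13 lay in the top 10% and 17 in the top 25%. Dppa5a, a small RNA-binding protein of early embryos, was the highest (16900, 15464 and 15655 normalised reads, 26722 ± 1302 per kb). Klf2 (5744 ± 419 per kb), Klf4 (2273 ± 745) and Klf5 (1184 ± 362), Krüppel-like factors, and the T-box gene Tbx3 (2312 ± 621) were all in the top 10%. So were Fgf4, the stem cell's own FGF (4250.2 ± 393), and Zfp42 (REX1, 3893 ± 399). Klf4 was highest in replicate 3 (6035, 5237 and 9507 normalised reads), as were Klf5, Tbx3 and Nr0b1. The low members were Sox15 (percentile 61.6), Manba (62.4), Tet2 (69.9) and Dnmt3l (31.7), the last at 68, 235 and 98.1 normalised reads and highest in replicate 2.

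All 12 genes listed for pluripotency at large were in the table, 10 in the top 25%, with a median percentile of 91.3 ± 0.524. Sall4, a zinc finger factor, had 9237, 11363 and 9282 normalised reads, Trim71, an RNA-binding ubiquitin ligase, 13221, 12017 and 13659.6, and Tdgf1, a NODAL co-receptor, 3012, 3930.4 and 3643. Lin28a, which blocks let-7 maturation, had 1981, 3597 and 2331, and Utf1, a chromatin factor, 1149, 1944 and 1377. All 5 but Trim71 were highest in replicate 2. Foxd3 (percentile 44.2) stood near the middle of all genes. Of the 12, 8 were highest in replicate 2, 4 in replicate 3 and 0 in replicate 1, where 32.5%, 47.9% and 19.6% of all genes were.

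Genes of the next, formative and primed, states were lower. Of 15 listed names 12 were in the table (Fgf5 and Grhl2 are not analysed here, and Oct6 is an older name of Pou3f1). These 12 had a median percentile of 39.5 ± 4.55, with 1 in the top 25%. That was Zic2 (1319, 1506 and 1515 normalised reads, percentile 79.5). The de novo DNA methyltransferase genes Dnmt3b (1160, 2065 and 1099) and Dnmt3a (670, 797 and 783) were near the upper middle, and Dnmt3b was highest in replicate 2. Otx2, a driver of the exit from the naive state, had 92, 137 and 204 (percentile 29.8), Pou3f1 (OCT6) 106, 104 and 88.7 (19.3) and Cdh2 (N-cadherin) 112, 108 and 62.3 (14.1). Otx2 was lowest in replicate 1 and highest in replicate 3.

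Most neural and mesoderm genes lay in the lowest 25% of the table, and the few endoderm genes lay below its median. Of the 9 neural genes in the table (of 14 listed), 7 lay in the lowest 25%, with a median percentile of 8.31 ± 1.22. Pax6 had 9.00, 11.3 and 13.7 normalised reads and Sox1 47, 49.6 and 43.5, whereas the tubulin gene Tubb3 had 962, 940 and 629 (percentile 75.2). Of 7 mesoderm and primitive streak genes (of 16), 5 lay in the lowest 25%. T (brachyury) had 293, 274 and 137 normalised reads (percentile 31.8 per kb) and Eomes 183, 173 and 199.7 (26.6), while Mixl1 (6.20), Twist1 (4.94) and Foxf1 (1.54) ranked lower. Of 3 endoderm genes (of 11), Cxcr4 had 303, 157 and 160.4 (percentile 39.6), Hhex 153, 137 and 206 (35.6) and Foxa3 48, 54.8 and 45.2 (16.2), with 1 in the lowest 25%. Foxf1, with 4.00, 1.74 and 2.56 reads, shows how few reads set the order at this end.

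Markers of other cell types that a culture could hold differed in level between lists. The median percentile over the libraries was 6.51 for blood and endothelial genes and 15.6 for primitive endoderm genes. It was 45.5 for genes of cells resembling 2-cell embryos, 51.9 for trophoblast genes and 86.3 for fibroblast genes. Primitive endoderm factors were low: Gata6 had 16, 6.09 and 22.2 normalised reads, Gata4 53, 20 and 64.8, Sox7 12, 31.3 and 17.9 and Pdgfra 75, 47 and 82.8. The matrix genes on the same list were not, with Lama1 (laminin) at 7419, 8789 and 7522 (percentile 86.1) and Sparc at 1078, 1387 and 1224 (79.8). In all 10 of the 11 listed genes were in the table, 6 of them in the lowest 25%. Of 13 trophoblast genes 4 were in the table, with Tfap2c (2232, 1703 and 2188) and Tead4 (1436, 1937 and 1605) in the top 25% and Krt18 (46, 45.2 and 78.5) and Gata2 (201, 97.4 and 154) in the lowest. Of 13 fibroblast genes 3 were in the table: Fn1 (percentile 97.8) and Vim (86.6) were high and Thy1 (81, 135 and 87.9 normalised reads, 27.5) low, while the collagen genes that define fibroblasts are not analysed here. Of 12 blood and endothelial genes 3 were in the table, Cd34 (36, 50.4 and 20.5), Runx1 (24, 33.9 and 27.3) and Hba-a1 (0 in all 3 libraries). Of 14 genes listed for cells resembling 2-cell embryos 2 were in the table, Zscan4c at 7.00, 7.83 and 2.56 (percentile 3.12) and the translation initiation factor gene Eif1a at 2424, 2062 and 3688 (88.2). In bulk RNA, fewer cells of a type and less RNA per cell cannot be told apart, and the part of other cells in these values was not tested.

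Of 15 germline and meiosis genes 12 were in the table, with 5 in the lowest 25% and only Kit, the receptor for stem cell factor, in the top (8183, 8227 and 7016 normalised reads). Stra8, the gate to meiosis, had 291, 69.6 and 164 (percentile 43.9), Dazl 359, 262 and 389, Ddx4 24, 15.7 and 55.5, Sycp3 17, 5.22 and 58.9 and Spo11 3.00, 2.61 and 0.853. Stra8 was highest in replicate 1 and lowest in replicate 2.

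Among 10 genes of the LIF to STAT3 pathway, the feedback gene Socs3 (5319, 5855 and 4991 normalised reads) and the kinase genes Pim1 (6563, 4781 and 6881) and Pim3 (4339, 4028 and 4823) were in the top 10%. The receptor subunit genes Lifr (1264, 2185 and 1521) and Il6st (3148, 3997 and 4095) stood at percentiles 70.6 and 82.7, Stat3 at 78.3, Jak1 at 49.1 and Jak2 at 16.5. The 12 targets of FGF and ERK, which a MEK inhibitor blocks, had a median percentile of 46.2 ± 6.01. Etv5 (5968, 6861 and 5972, percentile 93.9) and Spry2 (79.7) were high, Dusp6 (54.6) and Myc (58.6) in the middle, and Spry4 (31.4), Dusp4 (28.3), Egr1 (27.1), Phlda1 (13.3) and Fosl1 (5.62) low.

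Among 14 Wnt genes, Ctnnb1 (β-catenin) had 8819, 9164 and 9278 normalised reads (percentile 96.8). Its targets Axin2 (3860, 4453 and 3486, 87.7) and Sp5 (1444, 1167 and 895, 80.4) were in the top 25%, and Sp5 and Cdx1 (354, 131 and 104) were highest in replicate 1. Tcf7l1, the repressor that β-catenin counters, was at percentile 63.5, and the ligand gene Wnt8a had 9.00, 16.5 and 8.53. All 13 genes of the NODAL pathway were in the table. The ligand Nodal (5368, 5104 and 5488), its inhibitors Lefty1 (2774, 2667 and 2633) and Lefty2 (2569, 2943 and 2674), and Smad7 (5690, 5684 and 6201) were in the top 10%, and varied by CVs of 3.69%, 2.73%, 7.06% and 5.06%. The receptor genes Acvr1b (60.5), Acvr2b (54.1) and Acvr2a (21.1) were lower in rank. Of the DNA methylation genes, Uhrf1 (98.5), Dnmt1 (95.1) and Tet1 (88.7) were the highest and Tet3 (29.8) the lowest.

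**Figure D3:**
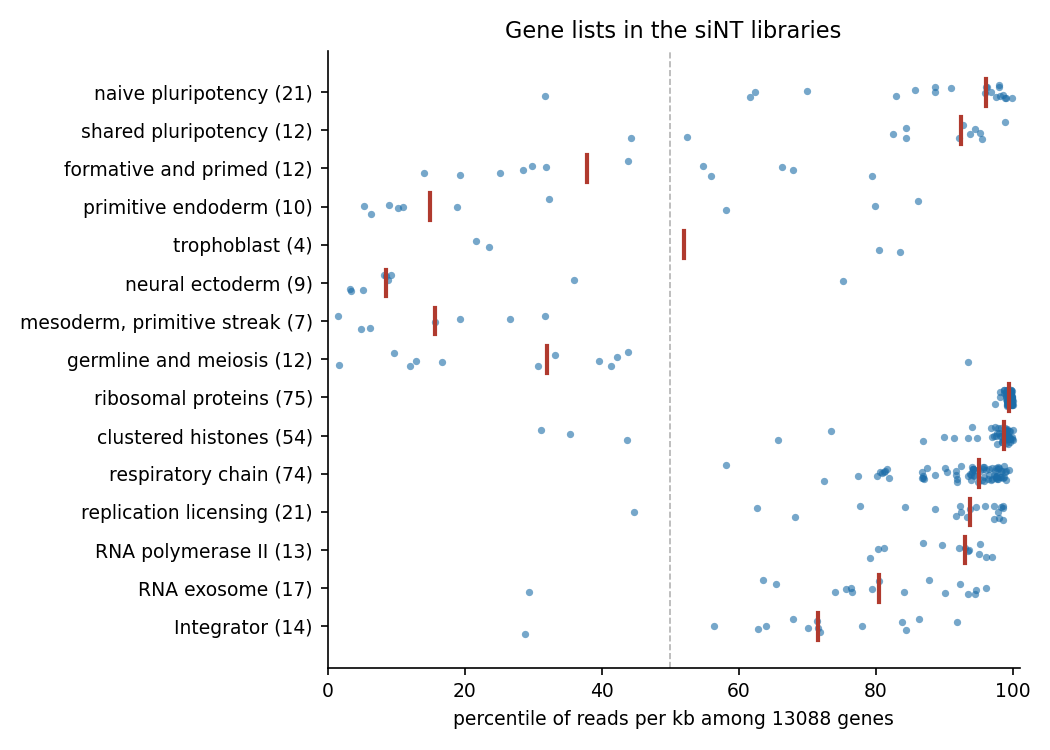
Percentile of the mean level per kb among 13088 genes for each gene (point) of 15 lists, with the number of genes in the table in parentheses; red bars are list medians and the dashed line is the median of all genes. Naive and shared pluripotency genes sit with the growth lists at the right, and the neural, mesoderm and primitive endoderm lists at the left.

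Genes for growth and division filled the top of the table. All 75 ribosomal protein genes lay in the top 10%, with a median percentile of 99.5 ± 0.0176, and held 5.58 ± 0.249% of exon reads. The 54 clustered histone genes held 1.72 ± 0.307%, with 47 in the top 10%. Of 74 respiratory chain genes 57 lay in the top 10%, led by the ATP synthase gene Atp5b (22953, 23441 and 25375 normalised reads), against 21 of 73 mitochondrial ribosomal protein genes. Of 36 proteasome genes 21 did, and of 17 glycolysis genes (Aldoa under 2 identifiers) 13, with Pkm at 22275, 29746 and 21863 and Gapdh at 17633, 18038 and 15955. Of 21 genes that license and start DNA replication 15 did, and Mcm5 (14777, 15351 and 15259), Mcm3 (16385, 16338 and 17181) and Mcm7 (15682, 16581 and 16234), subunits of the replicative helicase, were alike in level at 5794 ± 118, 5589.6 ± 159 and 5576 ± 156 reads per kb. Of 16 heat shock genes 11 lay in the top 10%, while the inducible Hspa1a (30, 22.6 and 35) and Hspa1b (44, 32.2 and 44.4) lay in the lowest 25%.

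Cell cycle inhibitor genes were lower, with a median percentile of 42.5 ± 3.38 over 10 genes. The exception was the p53 target Cdkn1a (p21), at 9003, 7267 and 10564 normalised reads (percentile 98.3). Rb1, the retinoblastoma gene, had 89, 82.6 and 125 (14.7), and Cdkn2a and Cdkn2b, of the INK4 locus, had 134, 123 and 145 and 58, 57.4 and 75.1.

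The machinery that makes and limits nascent RNA was itself well transcribed. Zc3h4, the target of the study's other siRNA, had 3465, 3610.4 and 3363 normalised reads (530.4 ± 19 per kb, percentile 77.3) in these control libraries, and its partner Wdr82 8967, 8088 and 9449.7 (2378 ± 186, 96.4). All 13 RNA polymerase II subunit genes lay in the top 25%, and Polr2a, the largest subunit, had 8449, 10367 and 9819. Of 21 pausing and elongation genes 15 lay in the top 25%, led by Cdk9 (P-TEFb kinase, 3179, 3385 and 3511) and Mepce (4613, 4840 and 4829), with Cdc73 of the PAF complex lowest (percentile 36.3). Of 17 exosome and cofactor genes 13 did, from Exosc5 (96.1) down to C1d (29.4), with the helicase gene Mtrex at 75.6 and the cofactor Zcchc8 at 79.4. Of 12 U1 snRNP and cap-binding genes 10 did, with Snrnp70 at 5191, 5390.4 and 5142. Of 18 cleavage and polyadenylation genes 13 did, and of 14 Integrator genes 5, with Ints5 highest (91.9) and Ints6l lowest (28.8).

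X-linked genes stood lower than autosomal genes. Over protein-coding genes with a mean of 10 or more normalised reads, the X median (395 genes) minus the autosomal median (11169 genes) was -0.91 ± 0.17 on the log2 scale of reads per kb (n = 3). Of the 20 chromosomes, X had the lowest median, 118 normalised reads per kb, and chromosome 11 the highest, 280.0. The X median on the log2 scale was 6.91, 6.64 and 6.97 in replicates 1, 2 and 3 against 7.69, 7.74 and 7.82 for autosomes, so the gap was widest in replicate 2. The highest X genes were ribosomal, Rpl10 (18036, 16609.6 and 16212 normalised reads), Rpl39 (8092, 7389.6 and 6565), Rps4x (15642, 14255 and 15592) and Rpl36a (5869, 5186 and 5353), then Slc25a5, an ADP/ATP carrier (6732, 5883 and 6722). Rlim, a ubiquitin ligase that promotes X inactivation, had 1932, 1465 and 2870.3.

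Of the 12009 protein-coding genes, 5867 (48.9%) were hosts of a region in the uaRNA table, and no gene of another type was. Each region is named by its host and comes without coordinates or length, so uaRNA values are reads per region, and the sources used here do not say how the authors chose the hosts. Hosts stood higher per kb, with a median of 274 ± 11.3 against 130 ± 4.81 for other protein-coding genes (n = 3). The share with a uaRNA region rose from 18.8% in the lowest 10% of protein-coding genes by level to 62.4% in the highest 10%, and from 42.8% in the group of shortest spans to 52.7% in the longest.

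A typical uaRNA had a small part of its host's exon reads. Over the 4807 pairs with means of 10 or more in both tables, the median log2 ratio of uaRNA to exon reads, with 1 added to each, was -3.68, -3.94 and -3.83 in the 3 libraries. As the mean of those it was -3.82 ± 0.13. The median of the pairs' own mean ratios corresponds to 7.03% of the host's exon reads, with quartiles of 2.86% and 18.5%. The median region had 64.0, 54.8 and 64.0 normalised reads, the quartiles of the mean were 26.4 and 153, and in 282 pairs (5.87%) the uaRNA mean was under 1% of the exon mean. The other 1060 pairs were too low for a ratio. The ratio compares an exon count over the whole transcript with a count over a region of unknown length. With exon reads taken per kb its median was -2.29 ± 0.12.

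**Figure D4:**
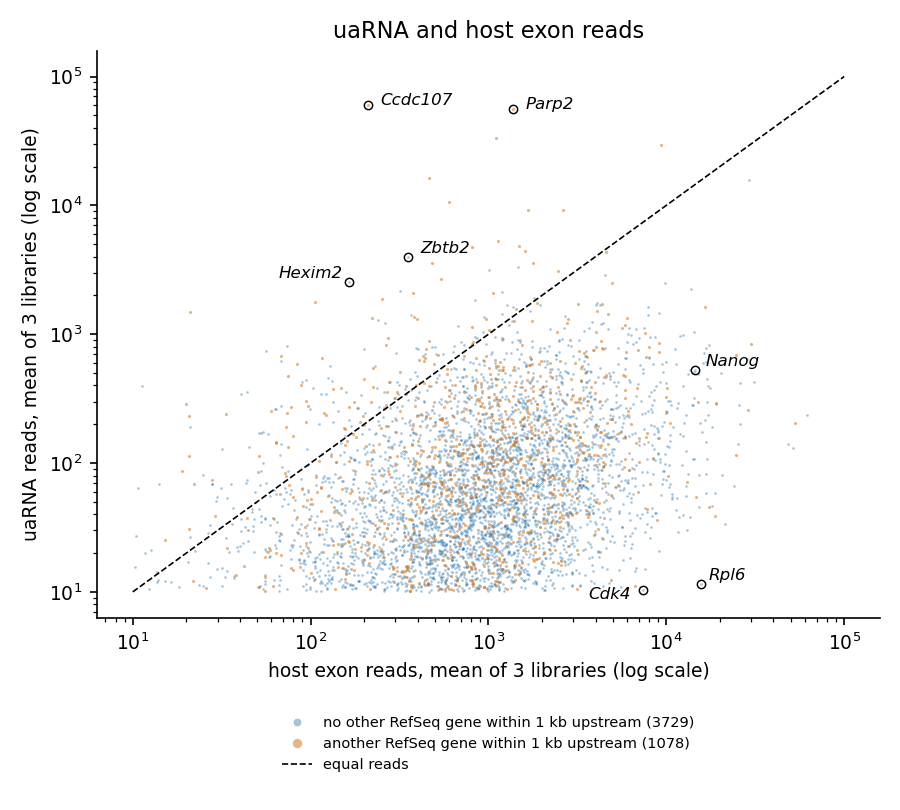
uaRNA reads against host exon reads, each the mean of normalised reads over the 3 siNT libraries on log scales, for 4807 pairs with means of 10 or more in both. Orange points have another RefSeq gene within 1 kb upstream of the host start; the dashed line marks equal reads, and 213 pairs lie on or above it.

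The uaRNA had at least as many reads as the host's exons in 213 pairs (4.43%) by the mean of the libraries, in 239, 204 and 207 in replicates 1, 2 and 3, and in 162 in all 3 at once. With exon reads taken per kb of transcript, 644 pairs did, and without the hosts that have a RefSeq gene within 1 kb upstream 117. The hosts of the 213 had a median percentile of 35.6 in level per kb against 65.9 for all 4807. Low exon reads help a pair into the 213, so part of this gap is built in. Another RefSeq gene lay within 1 kb upstream of the host start, on either strand, in 96 of the 213 (45.1%) and in 1078 of all 4807 pairs (22.4%). Reads of such a gene can fall in the region. The median log2 ratio was -3.30 over the 1078 pairs and -3.97 over the 3729 with no such gene within 1 kb. Here and below, a host without a neighbour or with no other gene upstream is one with none within 1 kb. Genes further upstream were not looked for, and their reads may fall in a region too.

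Of the 10 regions with the most reads 9 lay beside another gene, and in the first 3 that gene makes an abundant noncoding RNA. That of Ccdc107 had 47630, 56156 and 76815 normalised reads against 237, 200 and 191 over its host's exons, and Rmrp, the RNA of RNase MRP, lies upstream. That of Parp2 had 46606, 52412 and 68702, with Rpph1, the RNA of RNase P, upstream, and that of Gtf3c6 33586, 27485 and 39044, with the U3 gene Rnu3a. The region of H4c1 (36351, 28423 and 23217) has H3c1 within 1 kb upstream. That of Rnf151 (17535, 14920 and 16718) has Rps2 there, and that of Atf5 (11557, 8822 and 11321) Nup62. Those of 1810009A15Rik (10522, 7936 and 9131), Gid8 (9559, 8633 and 9270.5) and Rab24 (5503, 5475 and 4885) have Lbhd1, Dido1 and Prelid1 upstream. Only that of H1f1 (16955, 14757 and 15822), among these 10, had no RefSeq gene within 1 kb. H1f1 starts at chr13:23763666, and upstream of it H4c1, on the other strand, starts at chr13:23761730. With the region's length unknown, reads of histone neighbours may fall in this region too. The H4c1 region was close in reads to the exons of H1f1 (35870, 28121 and 22998). Likewise the Rnf151 region was close to the exons of Rps2 (17286, 15449 and 16497). H1f1 starts more than 1 kb upstream of H4c1, so regions may take in reads of genes beyond 1 kb, which was not tested. Together the 10 held 23.7%, 25.1% and 26.9% of uaRNA reads. The split of these reads between the neighbour and a divergent transcript was not tested.

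Among hosts with no other gene within 1 kb upstream, 9 of the 10 highest ratios belonged to genes below the median level per kb. Exon reads are the ratio's denominator, so low exon levels are partly built into this ranking. 1700018B08Rik had 426, 457 and 311 uaRNA reads against 8.00, 13.9 and 11.9 exon reads (log2 ratio 5.03 ± 0.49). Hexim2, an inhibitor of P-TEFb, had 2916, 2363 and 2319 against 172, 136 and 186 (3.94 ± 0.27). Zbtb2, a zinc finger repressor whose promoter is printed above, had 4253, 3864 and 3718 against 308, 270.4 and 478 (3.52 ± 0.49), and the uaRNA varied less between libraries than the host. Hspb9, a small heat shock gene, had 765, 777 and 689 against 63, 47 and 58.9 (3.71 ± 0.27), and Zfp202 740, 1006 and 704 against 74, 65.2 and 81.9 (3.44 ± 0.44). B3gnt9 (3.17 ± 0.13), Gm16253 (3.15 ± 0.30), Izumo2 (3.07 ± 0.23), Krt10 (3.02 ± 0.54) and Tmem238 (2.78 ± 0.35) followed. Tmem238, the exception, had 2187, 2123 and 2194 uaRNA reads against 348, 369 and 241 exon reads and stood at percentile 58.7. In each of these 10 the uaRNA exceeded the exons in all 3 libraries. With a neighbour, the other leading ratios were those of Lrrc51 (6.14 ± 0.53, beside Numa1), Smim27 (4.05 ± 0.05, beside Topors) and Gm9925 (3.80 ± 0.10, beside Mapk4).

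At the other end, where high exon reads themselves lower the ratio, were strongly transcribed hosts with next to no uaRNA. Rpl6 had 15323, 15698 and 15733 exon reads and 13, 11.3 and 10.2 uaRNA reads (log2 ratio -10.29 ± 0.18). Cdk4, a cyclin-dependent kinase of G1, had 7682, 7810.4 and 6645 and 11, 12.2 and 7.68 (-9.37 ± 0.19), and Rpl8 20711, 22546 and 20697 and 27, 35.7 and 38.4 (-9.28 ± 0.25). Gcn1 (-9.13 ± 0.51), the glycolytic Gpi1 (-9.02 ± 0.20), the cadherin gene Fat1 (-9.01 ± 0.88), the NuRD subunit gene Gatad2a (-8.97 ± 0.59) and H2bc18 (-8.87 ± 0.41) were next, and of these Gcn1, Gpi1 and H2bc18 have another gene upstream. All have few uaRNA reads, so counting error is large, and pairs under a mean of 10 were not ranked.

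Hosts with more exon reads had more uaRNA reads, but not in proportion. Spearman's rho between the log2 values was 0.313, 0.327 and 0.328 in the 3 libraries and Pearson's r 0.300, 0.314 and 0.316, across 4807 pairs that share each library's depth, as a description. The mean rho over libraries was 0.322, against 0.192 among pairs with means of 50 or more and 0.425 with no minimum. From the lowest to the highest of 5 equal groups of hosts by exon level per kb, the median uaRNA rose from 32.2 to 46.3, 59.7, 86.5 and 109 normalised reads. Over the same groups the median log2 ratio fell from -2.41 ± 0.14 to -4.97 ± 0.12. Exon level is also the ratio's denominator, so part of that fall is built in. Pairs with uaRNA at or over exon reads numbered 123 of 962 in the lowest group and 8 of 962 in the highest. By gene span the median log2 ratio ran from -3.49 ± 0.06 in the shortest of 5 groups (up to 7560 bases) to -4.07 ± 0.19 in the longest, and such pairs from 85 of 961 to 17 of 961.

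Naive genes had more uaRNA reads than most hosts. Of 18 naive pairs, 16 had a uaRNA above the median of all 4807, and their median was 271 reads against 62.0. Many naive genes are high in level, and the highest of the 5 host groups by exon level had a median of 109. The naive median log2 ratio was -4.50, with 0 pairs at or above equal reads. Klf4 had 809, 679 and 785 uaRNA reads, Tbx3 771, 752 and 674, Tfcp2l1 689, 510.4 and 732, Dppa5a 655, 510.4 and 637 and Nanog 531, 463 and 593 (log2 ratio -4.77 ± 0.08). Klf4 and Tbx3 each have a RefSeq lncRNA gene upstream. The 2 below the median were Klf5, at 35, 18.3 and 35.8 (-7.03 ± 0.29), and Dnmt3l, at 16, 20 and 11.1 (-2.85 ± 0.75). Of 10 shared pluripotency pairs 9 were above the median uaRNA. Pou5f1 led with 856, 833 and 863 (-3.41 ± 0.22), while Sox2 had 311, 288 and 340.4 (-3.26 ± 0.54), and both have a RefSeq lncRNA gene upstream. Foxd3 had 127, 176 and 142 uaRNA reads against 230, 425 and 309.7 exon reads.

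Growth genes had low ratios over high exon levels. Over 51 ribosomal protein pairs the median log2 ratio was -6.41 and 44 lay below the median of all pairs, yet 38 had more uaRNA reads than the median region. Their range was wide: Rps2, with Snhg9 upstream, had 1773, 1754 and 1364 uaRNA reads (log2 ratio -3.34 ± 0.23) and Rpl32, with no neighbour, 1163, 1030.4 and 913 (-3.79 ± 0.20), against the 13, 11.3 and 10.2 of Rpl6. The median was -6.58 over 14 glycolysis pairs, -5.68 over 20 histone pairs, -5.30 over 10 replication pairs, -5.18 over 20 proteasome pairs and -4.77 over 33 respiratory chain pairs. Many of these genes are high in level, and the highest of the 5 host groups by exon level had a median of -4.97. The respiratory chain median was above that value, and the others were below it, the proteasome median by the least. Mitochondrial ribosomal protein pairs, at -3.72, were close to all pairs (-3.83). Ratios were higher over 7 cell cycle inhibitor pairs (-0.80) and 12 immediate early pairs (-2.53). The uaRNA exceeded the exons at Cdkn2a (358, 330.4 and 438 against 134, 123 and 145) and Cdkn2b (113, 109.6 and 215 against 58, 57.4 and 75.1), which share the upstream lncRNA gene Gm12610. It also did so at Hhex (227, 170.4 and 254 against 153, 137 and 206), an endoderm factor gene. Within the list of early elongation regulators, which does not hold Hexim2, Hexim1 (1385, 1163 and 1602, log2 ratio -0.94 ± 0.12) and Nelfa (339, 406 and 341, -1.70 ± 0.05) had the most uaRNA for their exons. Zc3h4 (134, 109 and 175, -4.66 ± 0.39) and Wdr82 (208, 142 and 216, -5.56 ± 0.23) had less than the median pair for theirs.

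RefSeq promoter windows were matched to 8501 of 13088 genes (65.0%) by symbol, chromosome, strand and a start within 200 bases of the table's. Protein-coding windows had a median of 62.3% G or C and 23 CpGs, against 52.7% and 7 over all 32851 windows of the reference table. A GC box on either strand was in 72.2% of the 8178 protein-coding windows and 35.7% of all, an ETS core in 20.7% and 8.86%, a CCAAT box in 41.4% and 37.4%, and a TATA box in 6.22% and 13.6%. None of these motifs contains another. Hosts of a uaRNA (4152 windows) and other protein-coding genes (4026) were close, with a GC box in 73.9% and 70.4% and a TATA box in 5.30% and 7.18%. Over 2708 pairs with no other gene upstream, the share with a GC box was 75.6% in the lowest of 5 equal groups by ratio and 66.4% in the highest. The ETS core went the other way, from 20.3% to 25.5%. Read on the uaRNA's strand, the splice donor hexamer was in 2.03% of windows of the lowest group, 2.95% of the middle and 1.11% of the highest, and the poly(A) signal in 4.80%, 2.77% and 3.14%, with no steady order. The median log2 ratio was -4.11 with a GC box and -3.75 without, and -3.84 with an ETS core and -4.09 without, small beside the quartiles of single pairs. The printed windows show the same mixture, with GC boxes at Zbtb2 and Tmem238 but also at Cdk4, and an ETS core at Zfp202 but also at Rpl6.

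The spread between libraries was larger than counting gives. The median CV was 11.5% over 10102 genes with a mean of 100 or more, where counting alone gives 3.53%. It was 14.4% over 1708 uaRNAs, where counting gives 6.52%. Over 2 libraries at a time, the exon value was 7.84% without replicate 3, 9.49% without replicate 2 and 11.4% without replicate 1. A median CV over 2 libraries tends to be lower than over 3, so these compare with each other and not with 11.5%. Of the 35 genes with a CV over 50%, 24 were highest in replicate 3, 6 in replicate 1 and 5 in replicate 2, against 47.9%, 19.6% and 32.5% of all genes.

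**Figure D5:**
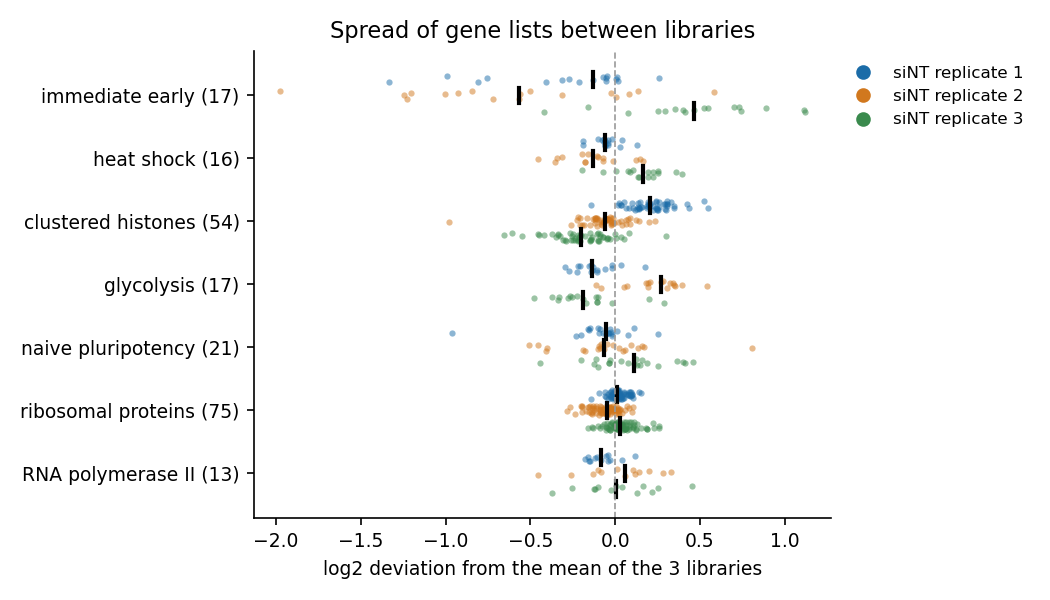
Log2 deviation of each gene (point) from its mean over the 3 siNT libraries for 7 lists, with the number of genes of mean 10 or more in parentheses; black bars are medians. Immediate early and heat shock genes lie to the right in replicate 3, clustered histone genes in replicate 1 and glycolysis genes in replicate 2, while ribosomal protein genes stay near 0.

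Immediate early genes, which answer growth factors and stress within minutes, set replicate 3 apart. Of 17 with a mean of 10 or more, 15 were highest in replicate 3, where 47.9% of all genes were. Their median log2 deviations were -0.13, -0.57 and 0.47 in replicates 1, 2 and 3 against -0.05, -0.03 and 0.05 for all genes. The AP-1 gene Jun, with the highest CV of all genes with a mean of 100 or more (103%), had 593, 263 and 2258 normalised reads. Egr1, a zinc finger factor, had 70, 76.5 and 387, Fos 138, 129.6 and 433 and Atf3 819, 362 and 1397. Junb (633, 789.6 and 936) moved less, and Nr4a1 (661, 719 and 587) and Ier3 (123, 246 and 122) were highest in replicate 2. Of 16 heat shock genes 13 were highest in replicate 3, against 47.9% of all genes, and their median log2 deviation there was 0.17. The uaRNA of Jun, which has the lncRNA gene Junos upstream, had 81, 52.2 and 116 reads, also highest in replicate 3.

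Other genes and lists moved with other libraries. Of 54 clustered histone genes, which are transcribed in S phase, 48 were highest in replicate 1, against 19.6% of all genes. Their median log2 deviations were 0.21, -0.06 and -0.20. H1f5, for example, had 26545, 21388 and 15494 normalised reads. Of 17 glycolysis genes 14 were highest in replicate 2 (-0.14, 0.27 and -0.19), against 32.5% of all genes. Among the 14 were Eno1 (11353, 15584 and 9695), Ldha (7089, 10032 and 6558) and Pfkl (2220, 3898 and 1924). Enox1 (69, 262 and 82.8), Spry4 (160, 665 and 241) and Trh (749, 2802 and 940.3), which encodes thyrotropin-releasing hormone, were high in replicate 2 only, and the calcium pump gene Atp2b2 (251, 178 and 717) in replicate 3. Ribosomal protein genes had medians of 0.01, -0.05 and 0.03. The cause of these differences was not tested.

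Some single uaRNAs also varied apart from their hosts. That of Crebzf had 6580, 1743 and 1696 normalised reads in replicates 1, 2 and 3 while its exons had 1499, 1348 and 1564, and that of Dnajc15 had 365, 108 and 148 against 471, 547 and 481. Both uaRNAs were high in replicate 1. Those of Elovl1 (90, 60 and 231) and Cdk1 (102, 62.6 and 196) were high in replicate 3. That of Rmi2 (178, 59.1 and 70.8) was high in replicate 1. The uaRNA of Castor1 (362, 594 and 151) was highest in replicate 2 and lowest in replicate 3, as were its exons (348, 478 and 274). The CVs of these uaRNAs ran from 57.1% to 84%. The exons of Cdk1, the mitotic kinase, had 6492, 5603 and 6412.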

How the data were processed

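TT-seq of 3 siNT libraries was used. Per the submitters' processing notes, reads were handled with cutadapt 1.14, STAR, featureCounts and DESeq2 on mm10 and dm6; roles and settings are not stated in the sources used here. Libraries were stranded, per the labels' protocols. Whether counting used the strand is not stated, so overlapping and antisense genes may share reads. The authors deposited depth-normalised signal, in a table of 13088 genes over exons and a table of 5867 uaRNA regions. Each deposited signal value was a whole read count divided by 1 factor per library (1, 1.15 and 1.172 for replicates 1, 2 and 3, in both tables), and 100% of values came out whole within 0.01. No count test was made, since there is 1 group.

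Levels are normalised reads, or reads per kb of the table's transcript length; medians of log2 per kb values added 0.1, ratios added 1, and a mean of 10 or more was asked for where stated. Percentiles rank all genes. In 6 rows the stop lies before the start, and these had no span, start site or promoter. 17 symbols are dates made by a spreadsheet and were not renamed. Symbols, neighbours and promoters came from RefSeq tables of GRCm38.p6, the build of mm10. Functions were tested on simulated tables, using Python 3.11.15, pandas 2.3.3 and numpy 2.4.6.

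Genes named are the 10 protein-coding, 8 lncRNA and up to 5 genes of each other type highest per kb, the 10 with most reads, the 10 uaRNAs with most reads, the 10 highest and 8 lowest ratios (with 10 more highest among hosts with no other gene upstream), the 6 genes and 6 uaRNAs of highest CV, and members of the gene lists. A few lncRNA genes of the top 10% were named after their values were seen. Members and lists were chosen with earlier results of these data known. Alternatives changed the filter, the pseudocount, the length, the scaling and the libraries used.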

Additional observations from a re-analysis of the deposited data

How the results depend on the processing

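No paired analysis was possible because only 1 group was used. Of 61 alternative values for 8 results, 44 stayed within the spread between libraries (counts within 1.5 times), 17 moved and 0 reversed. Of the 61, 24 left out a library, and a mean over the libraries kept cannot go far from the mean over all. Of the other 37 alternatives, 22 stayed. Among those, rescaling the libraries could not change the share of the top 100 genes or the naive percentile. With no filter the lncRNA minus protein-coding log2 difference was -2.43, the log2 uaRNA to exon ratio -4.09 and the uaRNA to exon correlation 0.425; with a minimum of 50 they were -1.04, -3.04 and 0.192. With gene span as length the lncRNA difference was -1.20, the X minus autosome difference -0.74 and the naive list's percentile 92.7. With exon reads per kb the ratio was -2.29, the correlation 0.331 and the pairs at or above equal reads 644. Without hosts that have a RefSeq gene within 1 kb upstream, an alternative chosen after seeing the data, these were -3.96, 0.347 and 117. Leaving out each library in turn gave ranges of -1.83 to -1.82 (lncRNA difference), 13.1% to 13.5% (share of the top 100 genes) and -0.98 to -0.81 (X difference). The ranges were -3.87 to -3.77 for the ratio, 204 to 219 for the pairs and 0.319 to 0.323 for the correlation. The median CV ran from 7.84% to 11.4%, lowest without replicate 3 and 9.49% without replicate 2. The naive percentile ran from 95.01 to 96.4, but as a mean over the libraries kept it could not leave its spread. Depth limits the low end, where 97 to 130 genes and 48 to 84 uaRNAs had 0 reads per library.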
